A study of Mus musculus with 192 samples.

Results

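Homozygous (HOM) and hemizygous (HEM) mice of the L44 line were compared at T3, the last time point, in midbrain, left cortex and right cortex, with each region taken apart. The members are all pools labelled T3 and AM, that is, collected in the morning, in these regions: 5 HOM and 4 HEM pools per region, which makes 27 of the 192 pools of the series. Every pool was counted for 43 target genes of amylin, insulin and leptin signalling with barcoded probes on the nCounter platform. The comparison addresses whether brain expression differed between animals with the transgene on both chromosomes and animals with it on a single chromosome, about 400 days after birth.

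L44 mice are of the FVB/n strain and carry a transgene for tripro-human amylin, a form of human amylin with proline substitutions that does not aggregate, under the rat insulin 2 promoter, which drives expression in the beta cells of the pancreas. HEM mice were mated with HEM mice to give HOM, HEM and nontransgenic (NON) males, so all groups had transgenic parents. In the mice that became diabetic, T3 follows the diabetic phase, after which blood glucose had returned to normal. By the study, HOM mice at T3 still had higher blood glucose than NON mice, and HEM mice did not differ significantly from either. The 4 HEM pools held RNA of 6 mice aged 400 to 407 days, and the 5 HOM pools held RNA of 8 mice aged 400 to 407 days, with mean ages of 404 and 402 days. By the labels, 2 of 4 HEM pools and 4 of 5 HOM pools came from previously diabetic mice, so genotype and diabetic history are partly confounded. HEM pools 1 and 6 and HOM pools 6 and 10 held RNA of 1 mouse each, and the others held RNA of 2 mice. All pools are of the L44 line, in which the dose of the transgene and the dose of its insertion site cannot be told apart, although by the study's methods separate lines made with the transgene had a similar phenotype. The midbrain piece is the brain left after the hindbrain and cortices were removed, so it includes the hypothalamus. In such pieces fewer cells of a type and less mRNA per cell cannot be told apart.

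Amylin is a beta cell hormone released with insulin. In the brain it acts on receptors made of the calcitonin receptor (Calcr) and a receptor activity modifying protein (Ramp), and this lowers food intake. Insulin binds its receptor (Insr), which passes the signal through the docking proteins Irs1 and Irs2 to phosphoinositide-3 kinase, made of a catalytic subunit (Pik3ca) and a regulatory subunit (Pik3r1), and on to the Akt kinases. Akt in turn inhibits the Gsk3 kinases and Foxo1. Leptin acts through the long receptor form Lepr-b, the kinase Jak2 and the transcription factor Stat3, and Socs3, Ptp1b and Pias3 restrain these signals. Among neurons of the hypothalamus, those that make Npy, Agrp, Hcrt or Mch stimulate appetite and those that make Pomc or Cart reduce it.

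Depth differed between the genotypes in 2 of the 3 regions. The midbrain HEM pools 1, 2/3, 4/5 and 6 had total target counts of 235322, 144251, 162575 and 182636, while the HOM pools 2/7, 3/4, 6, 8/9 and 10 had 291696, 272490, 232405, 281023 and 290734. HEM pool 1 alone reached the range of the HOM pools. In the left cortex the totals were 74587 to 212110 in HEM and 172210 to 268896 in HOM pools, and in the right cortex they were 113393 to 264292 and 104562 to 235940. Each count was therefore divided by the geometric mean of the 3 reference genes of its pool, and a normalised count is that ratio scaled to the average reference level of the region. The reference level in the midbrain was 4533 ± 1066 (SD, n = 4) in HEM and 6658 ± 554 (SD, n = 5) in HOM pools. B2m, 1 of the reference genes, was 12.0 ± 0.64 times the level of the other reference genes in HEM and 10.4 ± 0.90 times in HOM midbrain pools, so the calls made with it left out are also given.

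**Figure D1:**
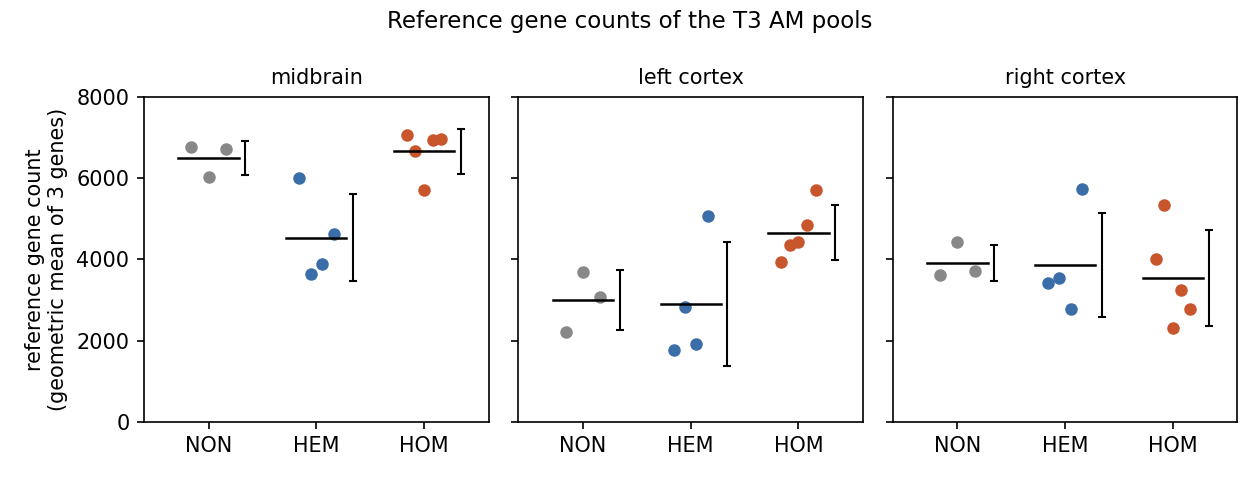
Geometric mean of the 3 reference gene counts (y axis, raw counts) in each T3 AM pool (points), with the group mean (line) and SD (bar), for NON, HEM and HOM in the 3 regions. In the midbrain the 5 HOM pools lay at 5700.5 to 7050 and the 4 HEM pools at 3624 to 6003, and in the right cortex the groups covered much the same range.

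The labelled tissues were checked against hypothalamic markers (Hcrt, Mch, Agrp, Pomc and Hdc). All 5 were above background, set in each pool 2 SD over the mean of its negative controls, in all 9 midbrain pools, and their summed normalised counts were 15584 to 28012. In the left cortex the sums were 131 to 263 and in the right cortex 238 to 393, with Hcrt and Agrp at or under background in at least 5 of 9 pools of each cortex. Mch and Hdc were above background in all 9 pools of each cortex, as was Pomc in the right cortex. Mch was the most abundant of the 5 in every region. The midbrain sums were mostly Mch, with means of 20012 in HEM and 23189 in HOM pools. The beta cell genes Ins1, Ins2 and Iapp (the mouse gene of amylin) summed to 59.9 to 97.6 (midbrain), 27.2 to 51.6 (left cortex) and 37.3 to 67.0 (right cortex). Of these 3 genes, all were at or under background in at least 5 of 9 pools of each cortex, and Ins1 and Iapp were so in the midbrain.

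Few genes differed between HOM and HEM pools by more than the spread between pools, estimated over all groups of a region. Of 43 genes, 1 passed an adjusted p of 0.05 in the midbrain (2.33%), and 0 passed in either cortex (edgeR quasi-likelihood test, Benjamini-Hochberg adjustment). Of the same genes, 8 (18.6%) had an unadjusted p under 0.05 in the midbrain, 4 of them fitted higher and 4 lower in HOM, as had 5 (left cortex) and 2 (right cortex) elsewhere. No gene passed in any region with an absolute log2 difference over 0.58 or over 1. The fitted differences ran from -0.24 to 0.40 (log2) in the midbrain, from -0.67 to 0.64 in the left cortex and from -0.80 to 0.39 in the right cortex, with medians of 0.08, 0.06 and 0.06. The 0.64 (Hcrt) and the -0.80 (Calcr-1a) are of genes at or under background in 6 and 9 of 9 pools. Among genes above background in all 9 pools (40, 33 and 35 genes) the largest absolute difference was 0.40, 0.31 and 0.39. A 95% confidence interval lay wholly within 1 log2 unit of 0 for 39, 34 and 38 of the 43 genes, and wholly within 0.58 for 35, 29 and 30 genes. HOM and HEM pools did not overlap for 3 genes in the midbrain (6.98%), Pik3r1, Gsk3b and Insr, and for 0 genes in either cortex. The directions follow the choice of reference: 29 of the 43 genes were fitted above 0 in the midbrain (67.4%), 25 with B2m left out, where the 4 called genes were all lower in HOM, and 40 with B2m alone, where the 3 called genes were all higher. Under TMM scaling 2 genes were called higher and 5 lower.

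**Figure D2:**
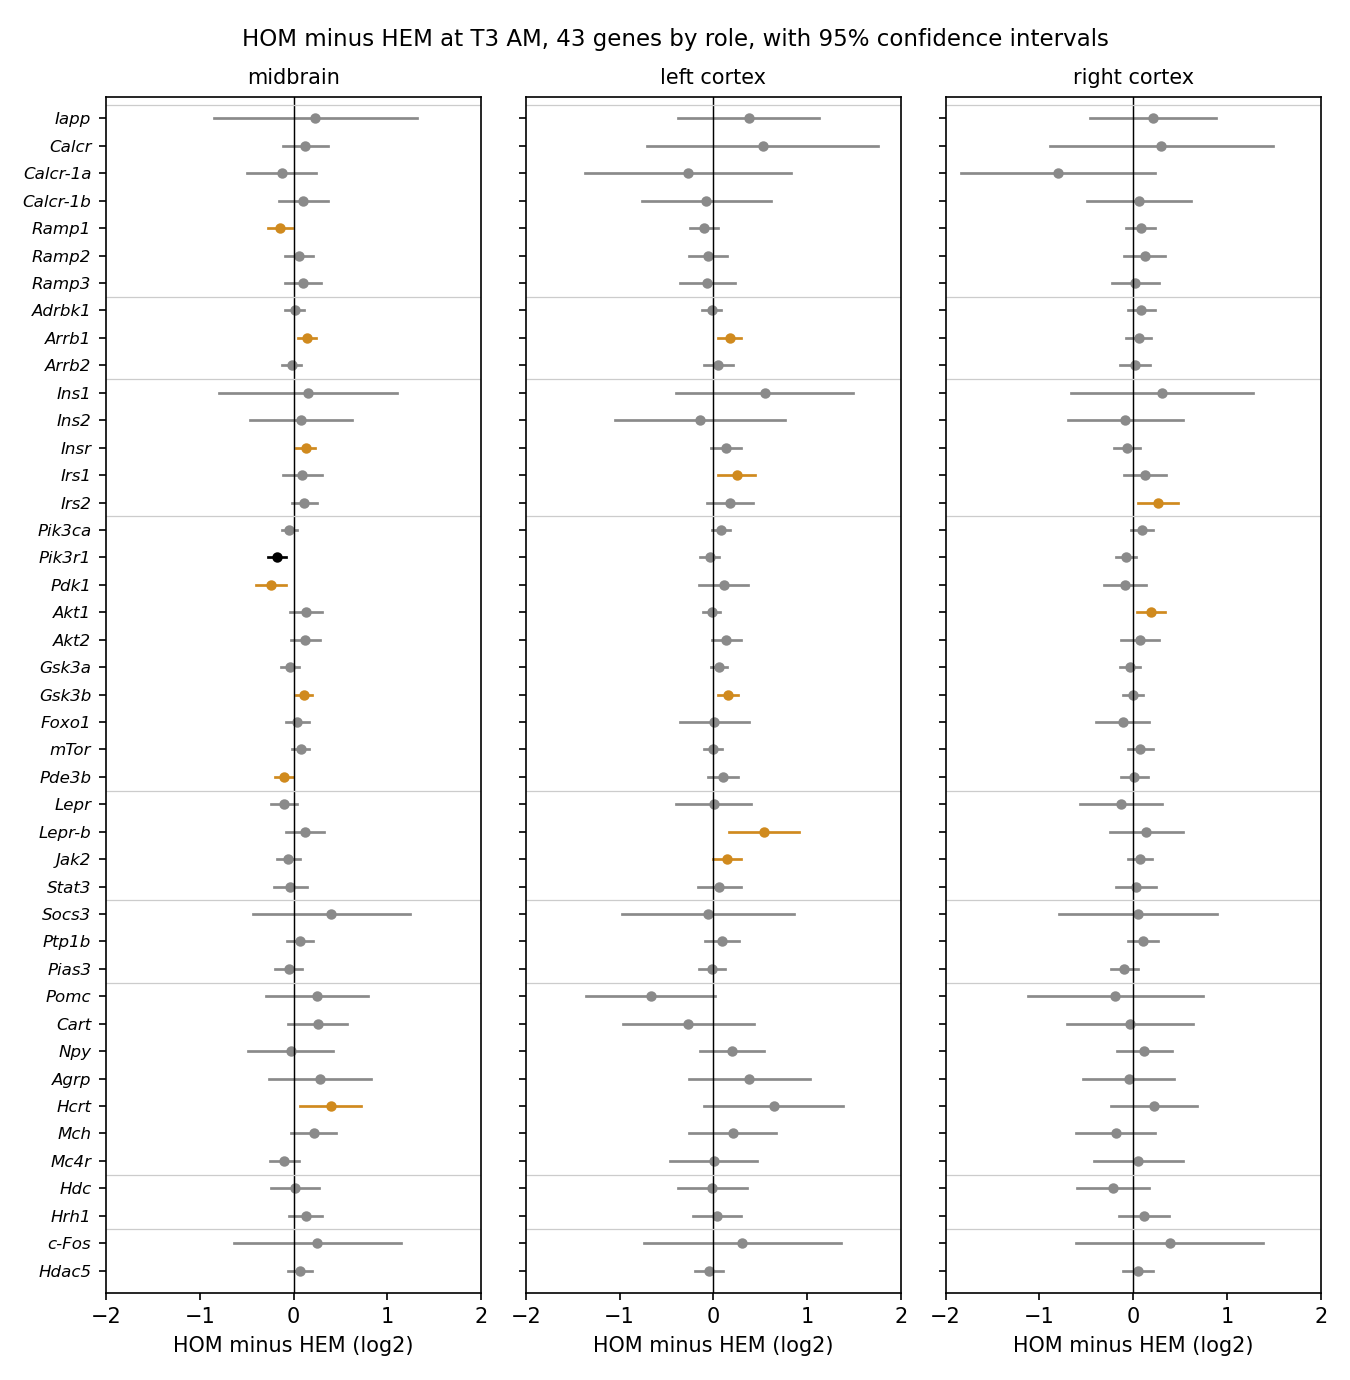
Fitted HOM minus HEM difference (x axis, log2) of each of 43 genes, ordered by role with grey lines between the lists, with 95% confidence intervals, from 5 HOM and 4 HEM pools per region. Black marks Pik3r1 in the midbrain (adjusted p = 0.0441), orange marks an unadjusted p under 0.05, which 8, 5 and 2 genes had, and grey marks the others.

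Pik3r1, which encodes the regulatory subunit of phosphoinositide-3 kinase, was the gene called in the midbrain. Its normalised counts were 7384, 7338, 6966 and 6952 in HEM pools 1, 2/3, 4/5 and 6. They were 6293, 6245, 6250.1, 6612 and 6257 in HOM pools 2/7, 3/4, 6, 8/9 and 10. Every HOM pool lay under every HEM pool. Pik3r1 fell by 11.6% in HOM against HEM, from 7160.1 ± 233 (SD, n = 4) to 6331 ± 158 (SD, n = 5), a log2 difference of -0.18 ± 0.049 (SE; 95% confidence interval -0.28 to -0.08; edgeR adjusted p = 0.0441). The 3 NON pools had 6155, 6950.3 and 6322, on both sides of the HOM pools, and the highest was nearly level with the lowest HEM pool. Midbrain NON means were also under HEM means for Gsk3a (21239 against 23799), Jak2 (12180 against 14486) and Pik3ca (14714.5 against 16303). They were above HEM means for Cart (5401 against 4292) and Mch (22111 against 20012). A NON level under that of HEM was thus not particular to Pik3r1. The call was lost when HEM pool 1, 2/3 or 6 or HOM pool 2/7, 3/4, 6 or 10 was left out (edgeR adjusted p = 0.0529 to 0.19) and kept without HEM pool 4/5 (0.0334) or HOM pool 8/9 (0.0341), with Pik3r1 at -0.19 to -0.16 throughout. It was also lost with diabetic history as a covariate (-0.18, edgeR adjusted p = 0.0684), among previously diabetic pools alone (-0.17, 0.18), with only the T3 pools fitted (-0.18, 0.112), with only pools of 2 mice (-0.16, 0.388), with the reference level as a covariate (-0.21, 0.109), and with the positive control probes as reference (-0.14, 0.39). Under TMM it was kept (-0.22, edgeR adjusted p = 0.000372). DESeq2 kept it too (-0.18, DESeq2 adjusted p = 0.0206). So did edgeR with negative controls subtracted (-0.18, edgeR adjusted p = 0.0447) or low genes left out (-0.18, 0.041). With only the 9 HOM and HEM pools fitted it was also kept (-0.18, edgeR adjusted p = 0.0275). The difference was larger with B2m left out of the reference, at -0.24 (edgeR adjusted p = 0.00313), and smaller with B2m alone, at -0.04 (0.684).

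Pdk1 and Arrb1 had the next lowest p in the midbrain and did not pass, although some alternatives called them. Pdk1 was called under TMM (edgeR adjusted p = 0.0158), with B2m left out (0.0199) and by DESeq2 (0.0488), and Arrb1 under TMM (0.0267) and by DESeq2 (0.0488). The accession given for the Pdk1 probe belongs in RefSeq to pyruvate dehydrogenase kinase 1, an enzyme that restrains entry of pyruvate into mitochondrial oxidation, although the panel lists it as a kinase of the phosphoinositide pathway. Pdk1 had 6372, 7427, 6628 and 6500.2 normalised counts in HEM pools 1, 2/3, 4/5 and 6 and 6080.1, 5813, 4786, 5362 and 6459 in HOM pools 2/7, 3/4, 6, 8/9 and 10. The groups met only in HOM pool 10 and HEM pool 1. HOM differed from HEM by -0.24 ± 0.078 on the log2 scale (SE; 95% confidence interval -0.40 to -0.08; edgeR adjusted p = 0.0734), and without HOM pool 10 it was -0.29 (edgeR adjusted p = 0.0459). The 3 NON pools, at 5436, 5348 and 5087, were within the HOM range.

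Arrb1 encodes beta-arrestin 1, which uncouples activated G protein-coupled receptors from their G proteins. It had 14559, 15602, 16513 and 15224 normalised counts in the HEM pools 1, 2/3, 4/5 and 6 and 17277, 16403, 16286, 16704 and 18736 in the HOM pools 2/7, 3/4, 6, 8/9 and 10. HEM pool 4/5 lay above 2 of the HOM pools, and the rest of the groups were apart. The difference of 0.14 ± 0.047 in log2 (SE; 95% confidence interval 0.05 to 0.24; edgeR adjusted p = 0.0734) became 0.11 (0.216) without HOM pool 10, the highest, and 0.18 (0.0334), past the threshold, without HEM pool 4/5. The NON pools had 14258, 15059.8 and 13801.

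Gsk3b, a kinase that Akt inhibits, and Insr, the insulin receptor, were the other genes whose midbrain pools did not overlap, and neither passed. Gsk3b had 18025, 17178, 18266 and 17822 in HEM pools 1, 2/3, 4/5 and 6 and 19218, 18669, 19146, 19275 and 19765 in HOM pools 2/7, 3/4, 6, 8/9 and 10. Insr had 2661, 2859.6, 2879 and 2863 in the HEM pools and 2947, 2903, 3088, 3155 and 3292 in the HOM pools, in the same order. Their log2 differences were 0.11 ± 0.041 and 0.13 ± 0.051 (SE; edgeR adjusted p = 0.132 for each). With B2m alone as reference both passed, as Arrb1 did (edgeR adjusted p = 0.0392, 0.0351 and 0.0351), and Gsk3b also passed under TMM (0.07, edgeR adjusted p = 0.0453).

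Hcrt, the appetite-stimulating and arousal peptide of the lateral hypothalamus, had a mean of 598 ± 70.8 (SD, n = 4) in HEM and 786 ± 135 (SD, n = 5) in HOM midbrain pools. This is 0.39 higher in HOM on the log2 scale (edgeR adjusted p = 0.132). All 5 hypothalamic markers were fitted above 0 in the midbrain, beside 29 of all 43 genes, and 0 of 5 were called. The markers' summed count was 21285 ± 4598 (SD, n = 4) in HEM and 24734 ± 2520 (SD, n = 5) in HOM pools, lowest in HEM pool 1 at 15584, and its part in the Hcrt difference was not tested. Ramp1, an amylin receptor subunit, was fitted at -0.15 (edgeR adjusted p = 0.154) and Pde3b, a phosphodiesterase that lowers cyclic AMP downstream of insulin, at -0.10 (0.22). With B2m left out of the reference both were called, Ramp1 at -0.21 (edgeR adjusted p = 0.0199) and Pde3b at -0.17 (0.0419), and so they were under TMM (0.0314 and 0.0234). Without HEM pool 1 Ramp1 was fitted at -0.08 (edgeR adjusted p = 0.521).

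**Figure D3:**
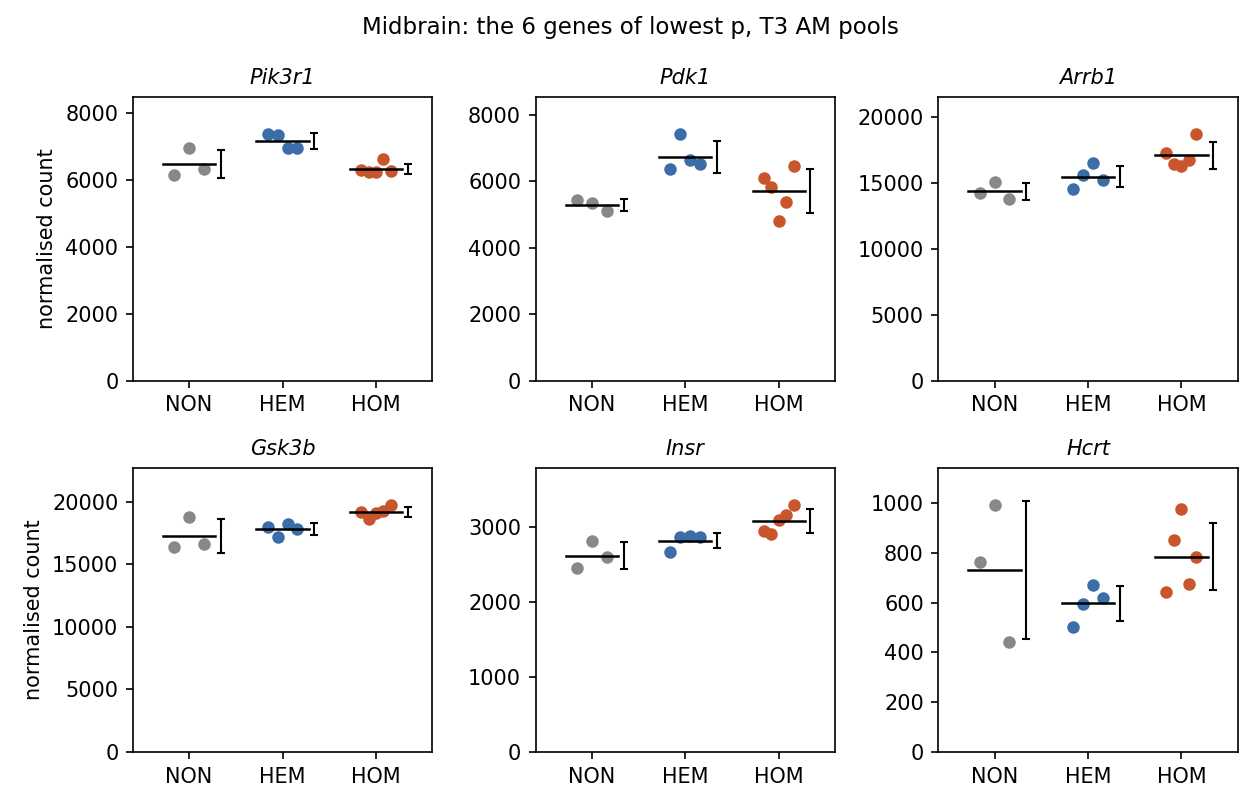
Normalised counts (y axes, from 0) of the 6 genes of lowest p in the midbrain, in each T3 AM pool (points) with the group mean (line) and SD (bar). Pik3r1 lay at 6952 to 7384 in HEM and 6245 to 6612 in HOM pools, and the groups were also apart for Gsk3b and Insr, whose adjusted p was 0.132.

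In the left cortex no gene was called, and 5 of 43 genes (11.6%) had an unadjusted p under 0.05, all fitted higher in HOM: Gsk3b, Lepr-b, Arrb1, Irs1 and Jak2. Gsk3b had 15548, 15005, 14387 and 16321 normalised counts in HEM pools 1, 2/3, 4/5 and 6 and 17292, 16092, 17824, 17459 and 16709.8 in HOM pools 2/7, 3/4, 6, 8/9 and 10. Only HEM pool 6 and HOM pool 3/4 crossed. In log2 the fitted difference came to 0.16 ± 0.052 (SE; 95% confidence interval 0.05 to 0.26; edgeR adjusted p = 0.0981).

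Lepr-b, the leptin receptor form that signals, was low in the left cortex. Its normalised counts were 33.2, 26.3, 39.0 and 30.5 in HEM pools 1, 2/3, 4/5 and 6 and 48.8, 46.6, 56.4, 47.3 and 32.6 in HOM pools 2/7, 3/4, 6, 8/9 and 10, from 11 to 47 raw counts, and 1 pool was at or under background. Apart from HOM pool 10 the HOM pools lay above the HEM pools. HOM minus HEM was 0.54 ± 0.183 in log2 (SE; edgeR adjusted p = 0.0981), 0.65 without HOM pool 10 (0.0418), and 1.00 after subtraction of the negative control mean (0.00928). The NON pools had 52.9, 47.7 and 39.7, in the range of the HOM pools.

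Arrb1 had 17577, 17979.5, 15814 and 17080.1 in the left cortex of HEM pools 1, 2/3, 4/5 and 6 and 18487, 17300.5, 18746, 19718 and 22166 in that of HOM pools 2/7, 3/4, 6, 8/9 and 10. HOM pool 3/4 lay within the HEM range and HOM pool 10 was highest. HOM minus HEM was 0.17 ± 0.059 in log2 (SE; edgeR adjusted p = 0.0981), and without HOM pool 10 it was 0.12 (0.395). Irs1 was fitted at 0.25 (edgeR adjusted p = 0.158) and Jak2 at 0.15 (0.405). Pomc, Akt2 and Insr, next by p, were fitted at -0.67, 0.14 and 0.14 (edgeR adjusted p = 0.405, 0.419 and 0.419). With each pool left out, Pomc ran from -0.91 to -0.44 and Akt2 from 0.080 to 0.21. Cortical Pomc rested on few counts: 87.6, 75.1, 19.5 and 42.0 normalised counts in HEM and at most 42.0 in HOM pools.

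The scale of the left cortex values rests on the reference genes. Reference levels were 3929 to 5709 in the 5 HOM pools, and 1763 and 1910 in HEM pools 1 and 4/5. Without these 2 pools, left out after the data were seen, 0 genes were called, and Gsk3b, Lepr-b and Arrb1 were fitted at 0.12, 0.68 and 0.14. With the positive control probes, spiked in at fixed amounts, as the reference, 33 genes passed in the left cortex, all higher in HOM, and the median difference over the 43 genes moved from 0.06 to 0.76. Beside that median, Pik3r1 was then fitted at 0.65 and Gsk3b at 0.83, so the shift was common to most genes.

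In the right cortex no gene was called, and Akt1 and Irs2, 2 of 43 genes (4.65%), had an unadjusted p under 0.05. That count was 8 without HEM pool 6 and 0 without HEM pool 1. Akt1, a kinase at the centre of insulin signalling, had 11766, 13612, 12375 and 13517 in HEM pools 1, 2/3, 4/5 and 6 and 15158, 14431, 15194, 15304 and 13126 in HOM pools 2/7, 3/4, 6, 8/9 and 10. HOM pool 10 lay within the HEM range, and the other HOM pools lay above it. The fitted log2 difference came to 0.19 ± 0.072 (SE; 95% confidence interval 0.05 to 0.34; edgeR adjusted p = 0.359).

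Irs2, a docking protein of the insulin receptor, had 2961, 2813, 3277 and 3991 in the right cortex of HEM pools 1, 2/3, 4/5 and 6 and 4435, 3601, 4413, 3919.9 and 3207 in that of HOM pools 2/7, 3/4, 6, 8/9 and 10. The groups overlapped through HEM pool 6 and HOM pool 10. HOM minus HEM was 0.26 ± 0.104 in log2 (SE; edgeR adjusted p = 0.359). Among previously diabetic pools alone it was 0.16 (0.732), and without HEM pool 6 it was 0.38 (0.0525).

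Pik3ca, the catalytic partner of Pik3r1, had 15006, 16176, 16404 and 17984 in HEM pools 1, 2/3, 4/5 and 6 and 18658, 17012, 17387, 17617 and 16800.1 in HOM pools 2/7, 3/4, 6, 8/9 and 10 of the right cortex. HEM pool 6 lay above 4 of the HOM pools. The log2 difference was 0.09 ± 0.056 (SE; edgeR adjusted p = 0.803), and with each pool left out it ran from 0.054 to 0.14. Calcr-1a, Pik3r1, Pias3, Ptp1b and Adrbk1, next by p, were fitted at -0.80, -0.08, -0.09, 0.10 and 0.09 (edgeR adjusted p = 0.803 for each), and Calcr-1a, a splice form of the calcitonin receptor, was at or under background in all 9 pools. Pias3 ran from -0.14 to -0.057 and Ptp1b from 0.038 to 0.18 with each pool left out. Adrbk1 encodes G protein-coupled receptor kinase 2, which acts with the arrestins.

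By role, each list is to be read beside all 43 genes, of which 1, 0 and 0 were called in midbrain, left and right cortex (2.33%, 0% and 0%), so that few or no calls in a list this short is what the whole panel would give. The amylin system showed no called gene. Of its 7 genes (Iapp, Calcr, Calcr-1a, Calcr-1b, Ramp1, Ramp2 and Ramp3) 0 passed in any region, with median log2 differences of 0.10 (midbrain), -0.07 (left) and 0.08 (right cortex), beside 0.08, 0.06 and 0.06 over all 43 genes. Calcr was 737 ± 139 (SD, n = 4) in HEM and 803 ± 85.2 (SD, n = 5) in HOM midbrain pools, a log2 difference of 0.13 (95% confidence interval -0.11 to 0.36; edgeR adjusted p = 0.552). With each pool left out this difference ran from -0.0054 to 0.19. The splice form Calcr-1b was 131 ± 15.0 and 141 ± 7.1 (edgeR adjusted p = 0.593). In the cortices Calcr was at or under background in at least 5 of 9 pools. Iapp was 21.7 ± 6.6 in HEM and 25.1 ± 20.6 in HOM midbrain pools and at or under background in 6 of 9. HOM pool 10 was at 61.7 and the other HOM pools at 13.2 to 18.9, beside 16.4 to 30.1 in HEM pools. Whether the Iapp probe binds the human transcript is not stated in the sources used here. The study could not tell whether the changes it saw in amylin arose from the mouse gene or the transgene. Among the desensitisation genes Adrbk1, Arrb1 and Arrb2, 0 of 3 passed, and medians were 0.01, 0.05 and 0.06.

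The insulin genes, receptor and substrates (Ins1, Ins2, Insr, Irs1 and Irs2) had 0 of 5 called in every region, with medians of 0.12, 0.18 and 0.12. All 5 were fitted above 0 in the midbrain, 4 of 5 in left and 3 of 5 in right cortex, beside 29, 27 and 28 of 43 genes (67.4%, 62.8% and 65.1%). Ins1 was at or under background in 6 of 9 midbrain pools and in all 9 pools of each cortex. Ins2 was so in 2 midbrain pools and in all 9 of each cortex. The signs of both genes in the cortices, and of Ins1 in the midbrain, therefore carry no measured difference. The 10 genes of the phosphoinositide-3 kinase and Akt arm had 1 called, Pik3r1 in the midbrain, and 4, 1 and 1 with an unadjusted p under 0.05, beside 8, 5 and 2 of all 43. Pdk1 is counted here as the panel has it, against its accession. The 9 genes without it had 1 called and 3, 1 and 1 with an unadjusted p under 0.05, and medians of 0.04, 0.06 and 0.01. Of these 9 genes in the midbrain, 5 were fitted above 0 (Akt1 at 0.13, Akt2 at 0.12, Gsk3b at 0.11, mTor at 0.08 and Foxo1 at 0.04) and the others (Pik3r1, Pde3b, Pik3ca and Gsk3a) below it. Akt1 was fitted at 0.06 without HEM pool 4/5, and Akt2 at 0.22 without HEM pool 1 and 0.07 without HEM pool 6. With Pdk1 the list's medians were 0.00, 0.07 and 0.00.

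Of the leptin receptor genes Lepr, Lepr-b, Jak2 and Stat3, 0 of 4 passed in any region, with medians of -0.04, 0.11 and 0.05. The inhibitors Socs3, Ptp1b and Pias3 had 0 of 3 called and medians of 0.07, -0.01 and 0.05. Socs3, which is induced by leptin and blocks its receptor, was 46.4 ± 8.1 (SD, n = 4) in HEM and 61.0 ± 7.6 (SD, n = 5) in HOM midbrain pools, a log2 difference of 0.40 with a 95% confidence interval of -0.43 to 1.24. Ptp1b, the phosphatase that acts on Insr and Jak2, was fitted at 0.07, 0.09 and 0.10 in the 3 regions. With each pool left out these values ran from 0.022 to 0.11, 0.041 to 0.15 and 0.038 to 0.18. The histamine genes Hdc and Hrh1 had 0 of 2 called, with medians of 0.07, 0.01 and -0.05.

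The 7 appetite genes (Pomc, Cart, Npy, Agrp, Hcrt, Mch and Mc4r) had 0 called in any region and medians of 0.25, 0.19 and -0.03, beside 0.08, 0.06 and 0.06 over all 43 genes. Of these 7, Agrp and Hcrt were at or under background in at least 5 of 9 pools of each cortex. In the midbrain, which holds the hypothalamus, Pomc was 294 ± 96.0 (SD, n = 4) in HEM and 350.0 ± 64.7 (SD, n = 5) in HOM pools, and Cart was 4292 ± 406 and 5127 ± 573. Their log2 differences were 0.25 (95% confidence interval -0.29 to 0.79) and 0.26 (-0.06 to 0.57), and both intervals hold 0. Pomc was fitted at 0.15 without HEM pool 1 or 2/3 and at 0.50 without HEM pool 6. Cart in the left and right cortices was fitted at -0.27 and -0.03 (edgeR adjusted p = 0.816 and 0.961), and without HOM pool 10, its lowest pool there, at -0.04 and 0.19 (0.997 and 0.804).

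1 pool, HOM pool 10, stood apart in Npy, an appetite-stimulating peptide in the hypothalamus that cortical interneurons also make. In the midbrain Npy was 23619 in HOM pool 10 and 12459.6 to 15679.9 in the other HOM pools, in the left cortex it was 55864 against 28691 to 32750.4, and in the right cortex it was 56909.7 against 38019.9 to 40812. HEM pools had 15088 to 17852, 29463 to 32278 and 36936 to 43002 in the 3 regions. HOM pool 10 was the highest of 9 pools in each region, and the ranges of the remaining HOM pools and the HEM pools overlapped. The log2 differences of Npy between HOM and HEM were -0.03, 0.19 and 0.12 (edgeR adjusted p = 0.9, 0.645 and 0.803), and without HOM pool 10 they were -0.20, -0.02 and -0.0010 (0.527, 0.997 and 0.994).

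c-Fos, an early response gene that marks recent neuronal activity, overlapped widely between the genotypes. In the midbrain it was 2207, 1903, 4628 and 3849.6 in HEM pools 1, 2/3, 4/5 and 6 and 4401, 5202, 4037, 3352 and 1758 in HOM pools 2/7, 3/4, 6, 8/9 and 10. HOM pool 10 was the lowest of 9 pools in every region, with 1785 (left cortex) and 2407 (right cortex), where the other HOM pools had 5088 to 8511 and 6971 to 11064. The log2 differences were 0.25, 0.31 and 0.39, and their 95% confidence intervals of -0.63 to 1.14, -0.74 to 1.36 and -0.61 to 1.39 reach past 1 log2 unit upwards in every region. Without HOM pool 10 c-Fos was fitted at 0.43, 0.54 and 0.62 (edgeR adjusted p = 0.527, 0.695 and 0.618). Over all such omissions of 1 pool it ran from 0.076 to 0.50, 0.12 to 0.54 and 0.18 to 0.62. Cart was also lowest of 9 pools in HOM pool 10 in the left cortex (431) and the right cortex (657).

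**Figure D4:**
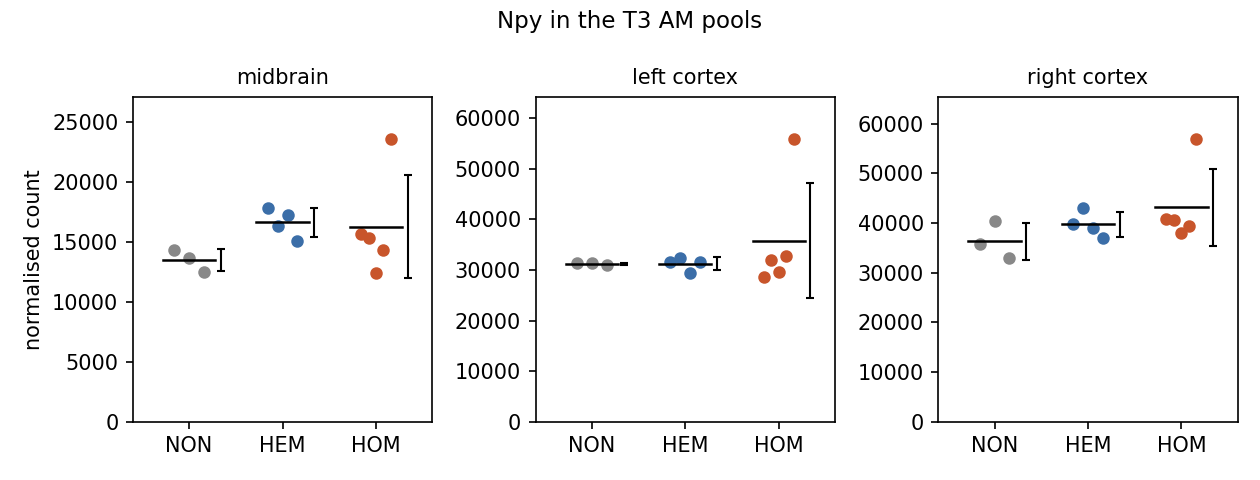
Normalised counts of Npy (y axes, from 0) in each T3 AM pool (points) with the group mean (line) and SD (bar) in the 3 regions. HOM pool 10, a pool of 1 mouse, is the single high point, at 23619, 55864 and 56909.7, and widens the SD of the HOM group.

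Because the same mice stand in the 3 regions, each pool was also averaged over its regions and counted once. In that comparison 0 of 43 genes passed (limma, Benjamini-Hochberg adjustment), and 4 (9.3%) had an unadjusted p under 0.05: Pik3r1, Hcrt, Arrb1 and Gsk3b. Pik3r1 was fitted at -0.10 (95% confidence interval -0.16 to -0.03; limma adjusted p = 0.263), was below 0 in each region, and did not overlap between the 4 HEM and 5 HOM pool means, as 2 of 43 genes (4.65%) did not. An exact two-sided permutation test over the 126 arrangements of the 9 pools gave p = 0.00794 for Pik3r1, the smallest they can give, and 0.341 after adjustment over the 43 genes. A single gene at that smallest p cannot pass this adjustment, so the adjusted value decides nothing. The midbrain values, on which Pik3r1 was called, are part of this mean, so the mean is not separate support. With B2m left out of the reference Pik3r1 passed, at -0.12 (limma adjusted p = 0.0405). Hcrt was fitted at 0.41, Arrb1 at 0.12 and Gsk3b at 0.09 (limma adjusted p = 0.263 for each; exact permutation p = 0.0238, 0.0238 and 0.0476). The Hcrt value includes both cortices, where Hcrt was at or under background in 6 and 7 of 9 pools. Arrb1 was the other gene whose pool means did not overlap.

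Differences between regions in the HOM minus HEM value were tested with the pool of mice as a block. In this test 0 of 43 genes passed in any pair of regions (edgeR, unadjusted p under 0.05 for 5, 3 and 3 genes). The left cortex minus midbrain value of Pik3r1 was 0.14 in log2 (95% confidence interval of the difference 0.04 to 0.24; edgeR adjusted p = 0.222). The left cortex minus midbrain value of Jak2 was 0.20 (edgeR adjusted p = 0.222), and the right minus left cortex values of Gsk3b and Akt1 were -0.16 and 0.21 (0.488 for each). The call of Pik3r1 in the midbrain is therefore not shown to be particular to that region. In the left cortex Pik3r1 was 10466 ± 183 (SD, n = 4) in HEM and 10196 ± 153 (SD, n = 5) in HOM pools, and in the right cortex 12280.0 ± 492 and 11636 ± 426.

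**Figure D5:**
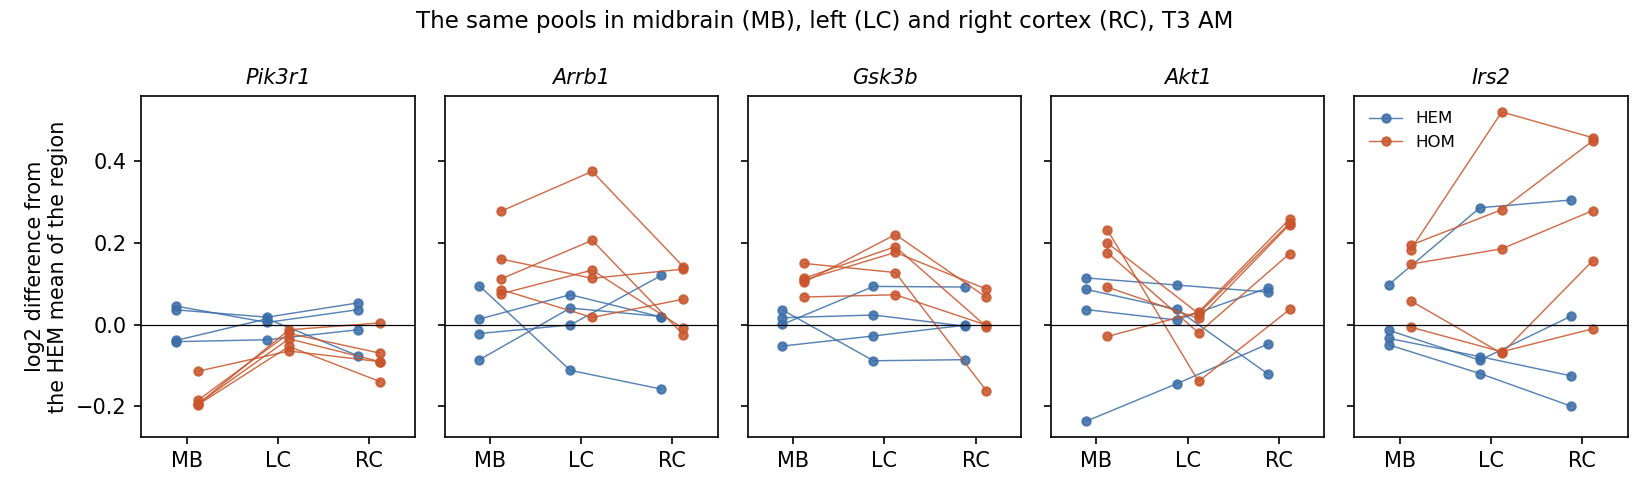
Log2 difference of each pool from the HEM mean of the region (y axis) for 5 genes in the midbrain (MB), left cortex (LC) and right cortex (RC), with lines joining the regions of 1 pool, HEM in blue and HOM in red. For Pik3r1 the genotypes do not overlap in MB and overlap in LC and RC, and the HOM pools of Gsk3b lie above 0 in MB and LC and on both sides of it in RC.

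T2, the onset of diabetes, was the other time point with AM pools of both genotypes, 2 HEM and 2 HOM. Their ages differed: the HEM pools held mice of 127 and 162 days and a mouse of 271 days, and the HOM pools mice of 133 and 162 days and a mouse of 224 days, so time point and age cannot be told apart. The HOM minus HEM difference at T3 less that at T2 passed for 1 of 43 genes in the midbrain (2.33%), Arrb1, and for 0 genes in either cortex (edgeR, unadjusted p under 0.05 for 7, 2 and 5 genes). In the midbrain at T2, Arrb1 had 19969 and 18132 normalised counts in HEM pools 4/6 and 9 and 17362.5 and 16299 in HOM pools 1/3 and 5. The HEM pools were the higher ones at T2 and the lower ones, for the most part, at T3. The difference moved from -0.18 at T2 to 0.14 at T3, by 0.32 ± 0.085 (SE; 95% confidence interval 0.15 to 0.49; edgeR adjusted p = 0.0279). With the positive control probes as reference 0 genes passed. Midbrain Pik3r1 was not called in this test (-0.07, 95% confidence interval -0.25 to 0.11; edgeR adjusted p = 0.875), and its T2 AM difference was -0.11 and its T2 PM difference, from 3 pools each, -0.13 (edgeR adjusted p = 0.355 and 0.281).

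At T3 in the afternoon (PM) there were 2 HEM pools and 1 HOM pool of other mice. The lone HOM pool has no replicate of its own, so only normalised counts and log2 differences from the region-wide fit are given. Midbrain Pik3r1 was 6704 and 7360.4 in HEM PM and 5962 in the HOM PM pool, and midbrain Arrb1 was 14638 and 15962 against 16128. Their log2 differences were -0.24 and 0.08. Midbrain Gsk3b was 16502 and 17424 against 16896, so the HOM pool lay between the HEM pools. In the left cortex Pik3r1 was 9792 and 8418 against 8314 and Gsk3b was 15575 and 14206 against 14037.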

How the data were processed

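RNA of pools of 1 or 2 mice was counted by the authors on the nCounter platform. The deposited values are raw counts, not normalised, for 43 targets, 3 reference genes and 8 negative and 6 positive controls. All 43 target accessions matched RefSeq (GRCm38.p6). Groups came from the labels. The members and gene lists were chosen with earlier results of these data known. Each region (46, 45 and 46 pools with a labelled collection time) was fitted in edgeR 4.0.16 (R 4.3.3) with group means by time, genotype and AM or PM collection and the reference genes' geometric mean as library size, and tested by quasi-likelihood, with Benjamini-Hochberg adjustment over 43 genes and calls at 0.05. Region means used limma 3.58.1 on log2 ratios with an offset of 0.5. Only the edgeR test of HOM against HEM in each region was checked on simulated counts. These counts took the reference level as correct, so the check does not bear on the choice of reference.

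Genes named are those called, the 8 of lowest p per region, and those in the study's expression results; values in every pool are given for called genes and the 3 of lowest p. Others named, such as Pik3r1, Gsk3b and Arrb1 outside those regions, were chosen after their values were seen. Same-numbered T3 AM pools of HOM or HEM mice are the same mice by the labels. Their deviations from the group mean correlated across regions with median r of 0.25 to 0.46 over 33 genes. At T3 PM, HOM pool 1/5 is labelled 403 and 401 days in the midbrain but 403 and 405 days in the left cortex. Among 48 pairs of pools of 1 group none was identical (lowest chi-square per degree of freedom 5.77). Pools of a region are of separate mice. In the region fits the p-values and intervals rest on a spread estimated over all groups of the region, not on the 9 pools alone. Pools of 1 and 2 mice counted alike. With only the 9 HOM and HEM pools fitted, 1, 0 and 0 genes were called in midbrain, left and right cortex. Alternatives were TMM, positive control probes, B2m left out or alone, DESeq2 1.42.0, background subtraction, a filter on low genes, other sets of pools, diabetic history, the reference level as a covariate, and each pool left out. NanoStringDiff, the study's tool, was not available. Of the reference genes, B2m is described and the others are not reported here.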

Additional observations from a re-analysis of the deposited data

Results flagged for a closer look

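Among the genes named in the report, 14 of 100 combinations of gene, region and genotype held a pool far from the rest of its group. They fell on 10 pools of a region, and 9 of the 14 were of HOM pool 10 or HEM pool 1. Such a test marks about 1 in 20 groups by chance, and their cause was not tested. HOM pool 10, of 1 mouse, was high in Npy in the midbrain (23619 normalised counts), left cortex (55864) and right cortex (56909.7), in midbrain Iapp (61.7) and in left cortex Calcr (52.2). HEM pool 1, also of 1 mouse, was low in midbrain Calcr (530.1) and Insr (2661), and high in midbrain Pde3b (2641) and right cortex Adrbk1 (14261).

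The other such pools were HOM pool 2/7 in midbrain Calcr (949), HOM pool 8/9 in midbrain Pik3r1 (6612), HEM pool 4/5 in left cortex Insr (1731), HOM pool 6 in right cortex Calcr (97.8) and HEM pool 2/3 in right cortex Socs3 (58.4). Pik3r1 in HOM pool 8/9 was the highest of the HOM pools and still under every HEM pool.

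The difference between HOM and HEM in midbrain Arrb1 was 0.32 (log2) greater at T3 AM than at T2 AM, where HEM pools were the higher ones (edgeR adjusted p = 0.0279). It was a test of the difference itself, and T2 AM had 2 pools of each genotype.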

How the results depend on the processing

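The midbrain count of 1 called gene became 7 under TMM, 4 with B2m left out, 3 with B2m alone and 3 with DESeq2. It became 0 with the positive control probes as reference, with only the T3 pools fitted, with only previously diabetic pools, with diabetic history as a covariate, and with only pools of 2 mice. Leaving out each pool gave 0 to 2 calls, and the called gene without HOM pool 10 was Pdk1. With the reference level as a covariate, added after the data were seen, 1 gene was called, Mch (0.76, edgeR adjusted p = 0.0346), and not Pik3r1. Midbrain Pik3r1 stayed below 0 under every alternative. The left cortex count of 0 became 33 with the positive control probes and 1 with the negative controls subtracted, and leaving out each pool gave 0 to 1. Right cortex counts were 0 under every alternative, and the mean over regions gave 1 with B2m left out. The T3 less T2 count in the midbrain became 0 with the positive control probes. No sign turned for Pik3r1 in the midbrain. Signs turned with B2m alone for midbrain Pde3b (0.031) and Npy (0.097), under TMM for left cortex Ptp1b (-0.016), and with the positive control probes for midbrain Npy (0.027), left cortex Pomc (0.081) and Cart (0.55), and right cortex Adrbk1 (-0.052), Ptp1b (-0.074), Pik3ca (-0.049) and Npy (-0.0061). They turned among previously diabetic pools for midbrain Npy (0.13) and left and right cortex Cart (0.025, 0.068), with diabetic history as a covariate for right cortex Cart (0.13), and among pools of 2 mice for midbrain Calcr-1b (-0.031), left and right cortex Cart (0.44, 0.18) and right cortex Npy (-0.029). The reference level as a covariate turned midbrain Akt2 (-0.049) and left cortex Npy (-0.016) and Cart (0.21), and the left cortex without HEM pools 1 and 4/5 turned Cart (0.029). Leaving out each pool gave Npy -0.20 to 0.052 (midbrain), -0.024 to 0.26 (left) and -0.0010 to 0.16 (right cortex), Cart -0.56 to 0.13 (left) and -0.19 to 0.19 (right cortex), and midbrain Calcr -0.0054 to 0.19. The median over 43 genes moved from 0.08 to 0.23 with B2m alone in the midbrain, from 0.06 to 0.76 (positive control probes) or -0.04 (TMM) in the left cortex, and from 0.06 to -0.11 with the positive control probes in the right cortex. The cause of these changes was not tested.

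No paired analysis of HOM against HEM was possible because pool numbers are numbered within a genotype and only 6 occurs in both. Without the replicate block, the test between regions called 0 genes, as with it. Genes at or under background, such as Iapp and Ins1, have no measured difference here, and 4 against 5 pools left midbrain confidence intervals with a median half-width of 0.16 (log2), against 0.25 and 0.22 in the left and right cortices.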

Other observations

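HOM pool 10 held RNA of 1 previously diabetic mouse. Over 33 genes, its deviation from the HOM mean correlated between midbrain and left cortex (r = 0.84), midbrain and right cortex (r = 0.81) and left and right cortex (r = 0.93), values that rest on genes measured in the same mouse and carry no test. At T3 PM, Npy of HOM pool 1/5 was 31261 in the midbrain, where the HEM PM pools had 15345 and 17479.7, and 48646 in the left cortex, where they had 30414 and 34339. The right cortex pool of HOM mouse 1 alone had 34659, beside 38311 and 38569.5 in the HEM PM pools.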
